A study of Mus musculus with 6 samples.

Results

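The genes described here are 35 mouse genes of the integrated stress response, serine and one-carbon metabolism, amino acid synthesis and cytosolic tRNA charging, taken as a fixed list out of 17610 genes tested. They comprise 7 transcription factors, 5 feedback and effector genes, 7 serine and one-carbon enzymes, 4 enzymes of asparagine, proline and cysteine synthesis, and 12 aminoacyl-tRNA synthetases. All 35 passed the filter on low counts. RNA was sequenced from 3 libraries of CD4+ T cells labelled Wtap KO and 3 of wild-type (WT) CD4+ T cells, both of strain C57BL/6J. Wtap holds together the writer complex that places m6A, a methyl mark on adenosines of mRNA, in the nucleus, and the study asked what its loss does to T cells. By one protocol given for every library, cells were kept for 24 h in 1 µM 4-hydroxytamoxifen, which is meant to deplete Wtap. They were then stimulated for 40 to 48 h with 1 µg/mL anti-CD3 and 2.5 µg/mL anti-CD28, with 10 µg/mL anti-IL-4 and 10 ng/mL IL-12 (Th1 conditions). Cells were expanded in 200 IU/mL IL-2 and taken on day 4. The sources used here do not give the Cre driver, the deleted part of Wtap, the age of the mice, or whether WT cells also carried Cre. They do not say either if libraries came from separate mice, so a p-value reflects only how these libraries vary.

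In the integrated stress response, kinases that sense missing amino acids, misfolded proteins, viral RNA or lack of haem phosphorylate the initiation factor eIF2. General protein synthesis then falls while translation of the Atf4 mRNA rises, so that ATF4 protein is set largely after transcription. ATF4 pairs with C/EBP proteins and binds a composite C/EBP-ATF element in genes for amino acid synthesis, amino acid uptake, tRNA charging and feedback on eIF2. In activated T cells, serine made from glucose or taken up feeds folate-bound one-carbon units into purine and thymidylate synthesis, which supports proliferation. RNA levels, as measured here, show neither eIF2 phosphorylation nor ATF4 protein.

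To show where the composite element lies in this gene set, the letters TGATGNAA were searched on both strands of the RefSeq promoter windows (GRCm38.p6), which run from 250 bases before to 50 bases after each start site. The letters were in the windows of 12 of the 29 genes that had one (41.4%), and in 3.97% of all 32851 windows. The stricter TGATGCAA was in the windows of 9 of the 29 genes and in 0.895% of all windows. TGATGCAA is one form of TGATGNAA, so the counts overlap. The 29 genes had 32 windows, so a share of genes stands beside a share of windows. The genes were listed for a response that acts through this element, so the shares describe the list and were not tested. Some of the stretches are printed 5′ to 3′ on the strand that reads TGATGNAA, with the element in capitals. They were picked to show the asparagine synthetase gene, effectors and a factor of the response, a proline enzyme, a synthetase, and Vldlr, the gene with the widest spread between WT libraries.
Asns: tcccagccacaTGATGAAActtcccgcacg
Chac1: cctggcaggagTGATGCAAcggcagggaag
Trib3: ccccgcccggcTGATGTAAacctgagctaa
Atf3: cgcggacttggTGATGCAAgtgcgagaagg
Pycr1: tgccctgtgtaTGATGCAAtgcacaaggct
Iars: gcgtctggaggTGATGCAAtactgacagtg
Vldlr: gctaggagcgcTGATGCAActattgctgct

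The Asns stretch lies at chr6:7693214-7693243 (minus strand), with the first base of its element at position -23 from the start site, and the Chac1 stretch at chr2:119351038-119351067 (minus strand). The Trib3 stretch is chr2:152344028-152344057 (plus), the Atf3 stretch chr1:191183425-191183454 (plus) and the Pycr1 stretch chr11:120643833-120643862 (minus). The Iars stretch is chr13:49682126-49682155 (minus) and the Vldlr stretch chr19:27216809-27216838 (minus). Other members, among them Aars, Yars, Gars, Nupr1 and Tars, also held the letters. Ppp1r15b, Cth, Nars, Wars, Cars and Lars had no window in the table.

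The window of Shmt1, the member with the largest called change, held no TGATGNAA. Its 250 bases before the start, chr11:60811266-60811515 on the minus strand, have a GC content of 60.0%.
Shmt1: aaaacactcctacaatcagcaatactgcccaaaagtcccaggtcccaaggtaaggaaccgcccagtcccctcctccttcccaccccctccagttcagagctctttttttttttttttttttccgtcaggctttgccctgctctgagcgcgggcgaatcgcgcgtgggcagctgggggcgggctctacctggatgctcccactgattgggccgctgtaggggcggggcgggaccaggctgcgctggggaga

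The libraries held 37121040, 40754960 and 44039467 estimated counts in Wtap KO and 36641082, 32363139 and 38546728 in WT. The defining T cell genes Cd3d, Cd3e, Cd3g, Cd4, Trac, Cd2, Cd28 and Lck lay between 130.2 TPM (Cd4) and 1324 TPM (Trac) in Wtap KO. In WT they lay between 135 TPM (Cd28) and 1688 TPM (Trac). Cd4 and Cd3g were called lower, 2 of 8 against 3.49% of all genes. Of the 8, 0 had a positive log2 fold change, and 4 had an unadjusted edgeR p under 0.05 (26.3% of all genes, either direction). In 5 the Wtap KO libraries all lay below WT in CPM, against 15.5% of all genes. Their summed levels were 2889 to 3104 TPM in Wtap KO and 3453 to 3770 TPM in WT. Of the Th1 genes, the cytokine Ifng lay at 0.486 to 0.951 TPM in Wtap KO and 0.308 to 0.853 TPM in WT. The other Th1 genes were expressed, with Il12rb2 at 119 to 153 TPM in Wtap KO and 70.4 to 125 TPM in WT, Tbx21 at 9.03 to 19.3 TPM in Wtap KO and 5.33 to 11.3 TPM in WT, and Cxcr3 at 63.2 to 96.5 TPM in Wtap KO and 102 to 121 TPM in WT. None of the 4 passed in edgeR or DESeq2, and Cxcr3, whose groups did not overlap, had an unadjusted edgeR p under 0.05. Dendritic cell markers summed to 28.5 to 39.8 TPM in Wtap KO and 3.47 to 12.2 TPM in WT, with H2-Aa and Cd74 called higher of 6. Cd74 alone held 23.1 to 32.3 TPM in Wtap KO and 2.33 to 9.31 TPM in WT, so the sums mostly follow that gene. Itgax (0 in WT 1), Flt3, Zbtb46 and Xcr1 lay at or below 0.36 TPM in every library. They had positive log2 fold changes but did not pass. Of 2 CD8 markers Cd8b1 was called higher, as was Itgam of 2 tested macrophage markers. Each of these marker calls was lost without Wtap KO 1 or Wtap KO 2 (edgeR adjusted p up to 0.134). The same held without Wtap KO 3 for Cd4, Cd74, H2-Aa and Itgam, without WT 2 for Cd3g, Cd4, Cd8b1 and Itgam, and without WT 1 or WT 3 for Cd74. B cell, NK cell, granulocyte, and erythroid and platelet markers gave 0 calls by edgeR or DESeq2 (1 of their 7 tested genes had an unadjusted p under 0.05), and S100a9 was at 0 in all 6 libraries. In bulk RNA, more cells of a type and more RNA per cell cannot be told apart. The part of such cells in the results that follow was not tested. Library 3 of Wtap KO stood apart, as the only one with a male pattern (Kdm5d, which lies on the Y chromosome, at 63.3 CPM; 2.43 to 3.53 CPM elsewhere). No WT library had this pattern, so sex was not balanced between the groups, and genotype was the only term of the fit. The part of sex in the calls was not tested. Wtap RNA summed over transcripts did not pass (edgeR log2 fold change 0.16 ± 0.10 SE, adjusted p = 0.371), and its transcripts went both ways. Transcript Wtap-205 had 5.14, 5.50 and 4.63 TPM in Wtap KO and 27.0, 22.9 and 18.2 TPM in WT, Wtap-201 had 35.4, 38.2 and 41.3 TPM in Wtap KO and 16.2, 17.8 and 18.7 TPM in WT, and Wtap-203 had 11.4, 8.30 and 9.29 TPM in Wtap KO and 0, 0.236 and 0 TPM in WT.

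The members spanned a wide range of RNA levels per length. In TPM (the authors' length-corrected level, scaled to the same total in each library), Atf4 was highest, at 111 ± 4.76 in Wtap KO and 93.4 ± 10.3 in WT (SD, n = 3 each, as for all means given here). Sars, Gars, Psat1, Wars, Nars and Psph followed. Cth, Chac1, Nupr1 and Pycr1 averaged below 1 TPM in both groups, and Cth was at 0.142 ± 0.0828 TPM in Wtap KO and 0.210 ± 0.107 TPM in WT. Summed over the 35 genes, the Wtap KO libraries held 829, 803 and 774 TPM and the WT libraries 755, 688 and 635 TPM. The sums did not overlap, with the nearest pair at 774 TPM in Wtap KO 3 and 755 TPM in WT 1.

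**Figure D1:**
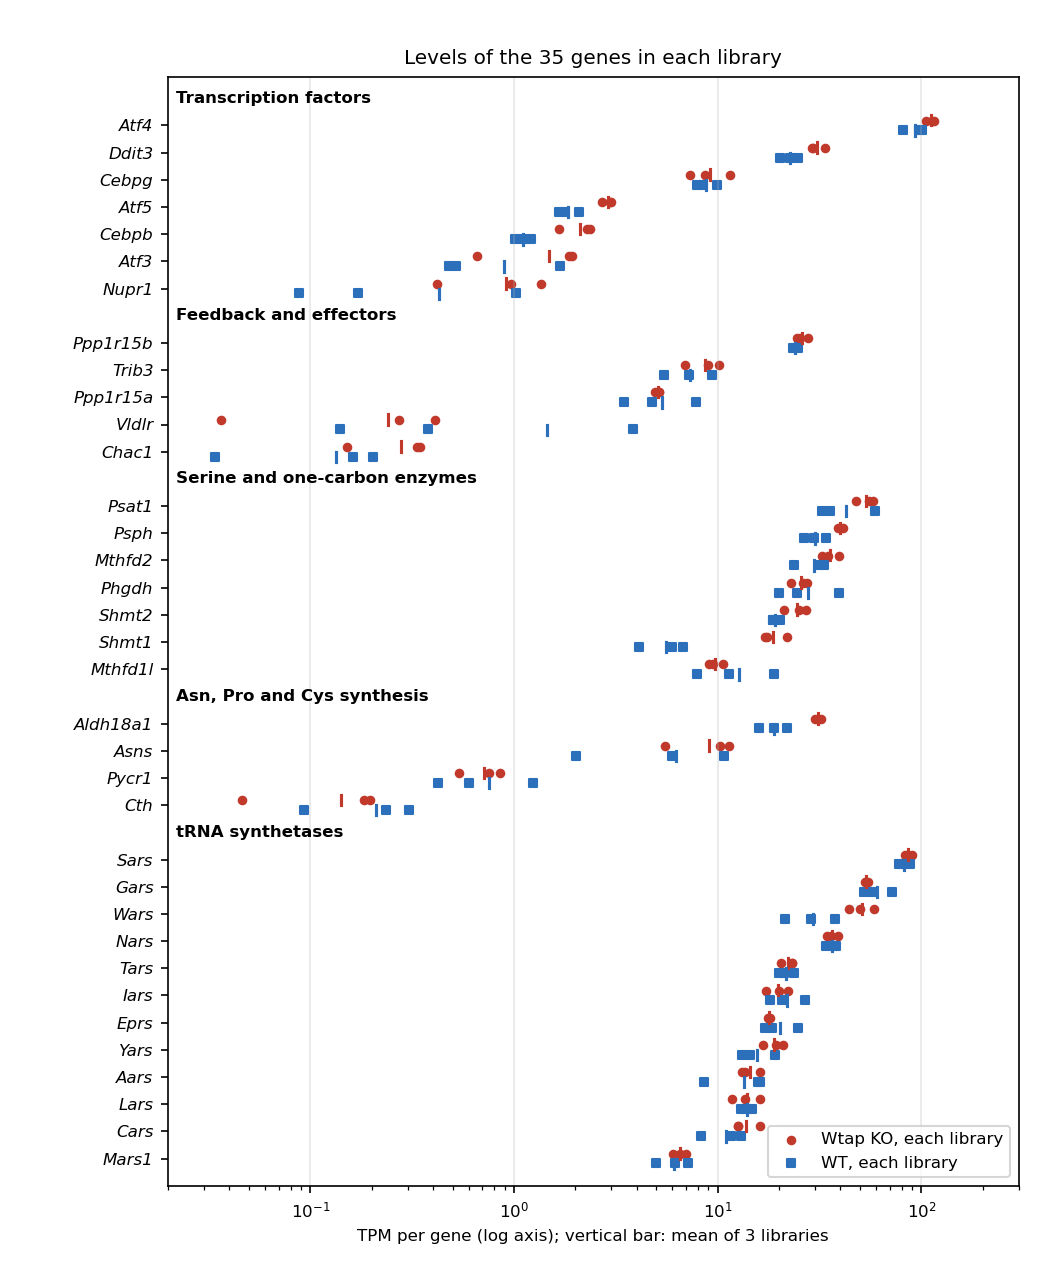
RNA level in TPM (log axis) of the 35 genes by role, with 1 red circle for each Wtap KO library, 1 blue square for each WT library and a vertical bar at the mean of 3 libraries. Atf4 and Sars are the highest, Cth and Chac1 the lowest, and the squares of Vldlr, Asns and Nupr1 are spread far wider than those of Ppp1r15b or Nars.

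Of the 35 members, 4 were higher in Wtap KO, 0 were lower and 31 did not pass. Calls were made by edgeR's quasi-likelihood test at an adjusted p (Benjamini-Hochberg over all genes) under 0.05. The 4 were the cytosolic serine hydroxymethyltransferase Shmt1, the proline synthesis enzyme Aldh18a1, the tryptophanyl-tRNA synthetase Wars and the transcription factor Cebpb. The share of members called was 11.4%, against 9.23% of all genes tested. Calls of higher genes alone came to 5.75% of all genes and calls of lower genes to 3.49%. Without adjustment, 6 members were higher and 1 lower at p under 0.05 (7 of 35; 26.3% of all genes in either direction), and DESeq2 also called 4 members higher and 0 lower. The median log2 fold change of the members was 0.12 and that of all genes -0.00058. The members' median depended on the setting. It was 0.051 with an offset for gene GC content (all genes -0.017) and 0.26 with limma on log2(TPM + 0.1) (all genes 0.061). The groups did not overlap in CPM (counts scaled to a common library size) for 6 members that were higher and 1 that was lower in Wtap KO, against 17.2% and 15.5% of all genes. Leaving out WT 2 or Wtap KO 3 left 2 members called, and leaving out Wtap KO 1 or Wtap KO 2 left 1.

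**Figure D2:**
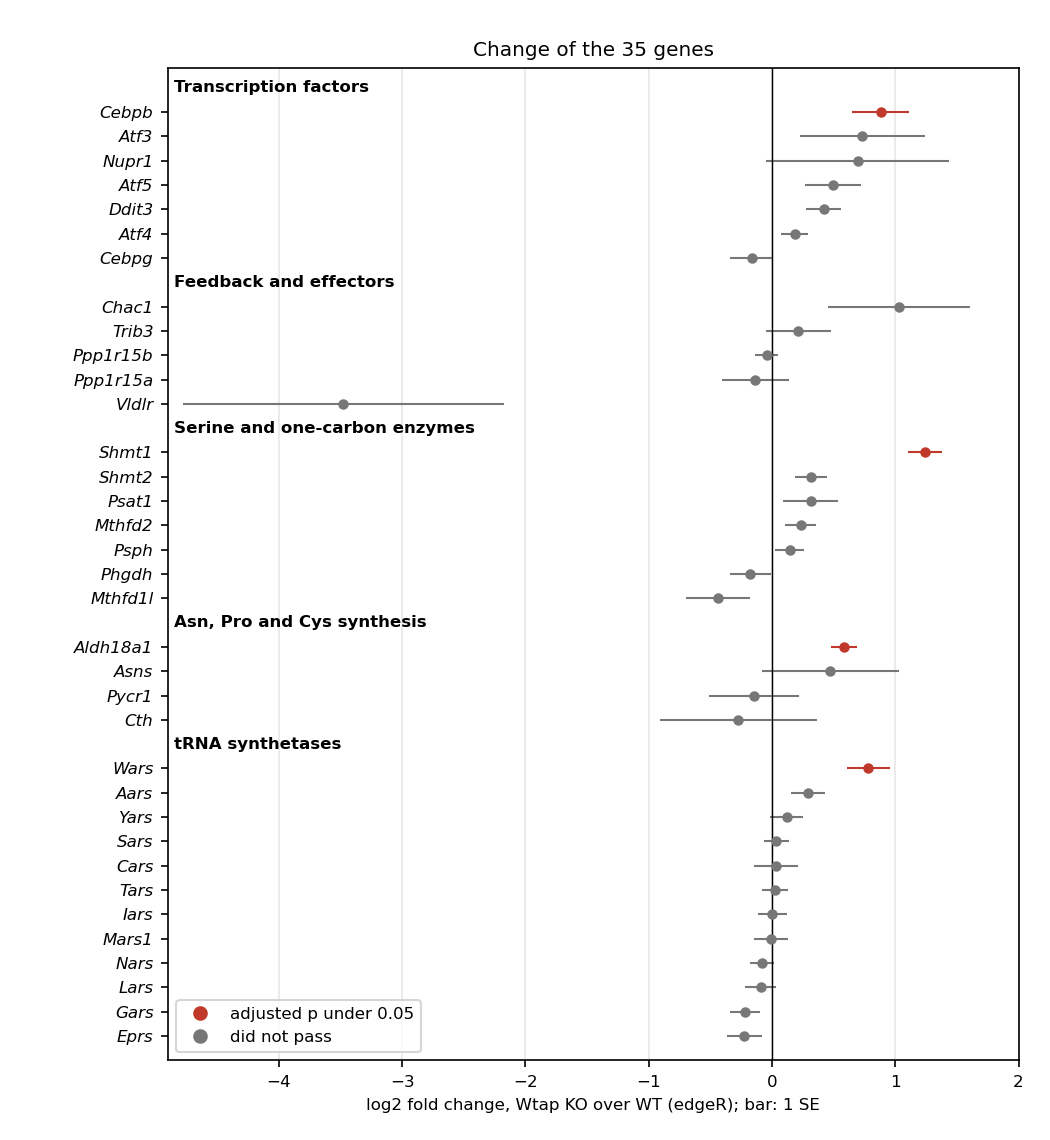
Log2 fold change, Wtap KO over WT, of each member (edgeR, bar: 1 SE), sorted within role; red marks an adjusted p under 0.05. Cebpb, Shmt1, Aldh18a1 and Wars are the red points, 11 of 12 synthetases lie between -0.22 and 0.29, and Vldlr stands far left with the widest bar.

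Among the transcription factors, 1 of 7 rose. Atf4 itself (ENSMUSG00000042406, chr15:80255184-80257541, plus strand, GRCm38) had 126, 133 and 115 CPM in the Wtap KO libraries and 97.8, 117 and 114 CPM in the WT libraries. Wtap KO 3 lay below WT 2, so the groups overlapped in CPM. They did not overlap per length, at 115, 113 and 106 TPM in Wtap KO and 81.7, 101 and 97.4 TPM in WT. The log2 fold change of Atf4 on counts was 0.18 ± 0.11 (SE), with a 95% interval of -0.03 to 0.40 and an edgeR adjusted p of 0.331. Over the alternatives tried, the adjusted p ran from 0.210 to 0.651.

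Cebpb, a C/EBP factor of the response and of inflammation (ENSMUSG00000056501, chr2:167688915-167690418, plus strand), had 3.20, 3.24 and 2.24 CPM in Wtap KO and 1.55, 1.69 and 1.47 CPM in WT. Each Wtap KO library was above every WT library, with Wtap KO 3 nearest to WT. The gene rose 1.84-fold (log2 fold change 0.88 ± 0.23, edgeR adjusted p = 0.0478), on 101 to 132 estimated counts per library in Wtap KO and 54 to 56 in WT. The call was lost in each of the 6 leave-one-out fits (adjusted p 0.0529 to 0.194), while the log2 fold change stayed between 0.79 and 1.04. It was also lost with limma on TPM, an offset for transcript length and an offset for gene GC content (log2 fold change 0.56, adjusted p = 0.167). Over all alternatives the adjusted p ran from 0.0177 to 0.194. Cebpb, whose GC content is 67.2%, shares 312 exonic bases with Tmem189 on the opposite strand, which was at 28.5 CPM in Wtap KO and 29.8 CPM in WT.

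Ddit3 (CHOP), a factor of late and severe stress, had 19.8, 20.9 and 20.96 CPM in Wtap KO and 12.95, 15.8 and 17.3 CPM in WT. The groups did not overlap, yet the gene did not pass (log2 fold change 0.42 ± 0.14, edgeR adjusted p = 0.0984, 0.0534 to 0.278 over the alternatives). Atf5, a factor related to ATF4, likewise did not overlap, at 3.12, 2.80 and 2.61 CPM in Wtap KO and 1.77, 1.75 and 2.54 CPM in WT (log2 fold change 0.49 ± 0.23, edgeR adjusted p = 0.210). Atf3, a stress-induced repressor, and Nupr1, a small chromatin protein, overlapped between groups and were highest in WT 1 among WT. Nupr1 had 13, 26 and 12 counts in Wtap KO and 22, 2 and 3 in WT. Its log2 fold change was 0.69 ± 0.74, and 2.45 without WT 1, where it was called (edgeR adjusted p = 0.0380, against 0.312 to 0.918 in the other settings). Cebpg, a partner of ATF4, did not pass (log2 fold change -0.17 ± 0.17).

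Of the 5 feedback and effector genes, 0 were called by edgeR or DESeq2, and 1, Vldlr, had an unadjusted p under 0.05. Ppp1r15b, the constitutive subunit that directs a phosphatase to eIF2, was the highest of them and had 111, 111 and 122 CPM in Wtap KO and 115, 118 and 122 CPM in WT. The groups overlapped almost fully (log2 fold change -0.04 ± 0.09, 95% interval -0.23 to 0.14). Its stress-induced relative Ppp1r15a had 11.1, 11.3 and 11.1 CPM in Wtap KO and 7.76, 10.8 and 18.3 CPM in WT. The Wtap KO libraries lay within the WT range.

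Trib3, a pseudokinase that restrains ATF4, had 18.4, 16.7 and 11.7 CPM in Wtap KO and 8.92, 13.3 and 18.1 CPM in WT. Chac1, which degrades glutathione, was near the limit of counting, with 19, 22 and 10 counts in Wtap KO and 9, 10 and 2 in WT. In both genes the groups overlapped and neither passed (log2 fold change 0.21 ± 0.26 for Trib3 and 1.03 ± 0.58 for Chac1). Vldlr, a lipoprotein receptor, had 0.918, 0.541 and 0.243 CPM in Wtap KO and 16.7, 1.41 and 0.600 CPM in WT. WT 1 alone stood high, and Wtap KO 1 lay above WT 3. The gene did not pass (log2 fold change -3.48 ± 1.30, edgeR adjusted p = 0.152), and its log2 fold change was -0.83 without WT 1.

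One of the 7 serine and one-carbon enzymes rose. Shmt1, which moves a one-carbon unit from serine to tetrahydrofolate in the cytosol (ENSMUSG00000020534, chr11:60788104-60811718, minus strand), had 22.3, 20.3 and 24.5 CPM in Wtap KO and 8.59, 9.41 and 10.4 CPM in WT. Every Wtap KO library was well above every WT library, and the spread within each group was 1.21-fold. The change was 2.36-fold, with a log2 fold change of 1.24 ± 0.14 and an edgeR adjusted p of 0.00229. It was called in all 15 alternatives, with adjusted p-values up to 0.0192 and log2 fold changes of 1.17 to 1.31 in the leave-one-out fits. Shmt1 shares 184 exonic bases with Smcr8 on the opposite strand. Smcr8 had 94.1, 87.7 and 99.8 CPM in Wtap KO and 46.8, 66.7 and 79.7 CPM in WT, without overlap (log2 fold change 0.54 ± 0.18, edgeR adjusted p = 0.0921). It was called in 3 of the 15 alternatives, with adjusted p-values of 0.0275 to 0.228 over all of them. The sources used here do not name the strand setting of the counting, so reads from the shared bases cannot be told apart.

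Shmt2, the mitochondrial counterpart of Shmt1, had 53.3, 52.6 and 40.5 CPM in Wtap KO and 38.5, 40.8 and 38.4 CPM in WT. In CPM only Wtap KO 3 fell within the WT range. Per length the groups did not overlap, at 27.2, 25.0 and 21.2 TPM in Wtap KO and 18.7, 20.3 and 18.7 TPM in WT. Shmt2 did not pass (log2 fold change 0.31 ± 0.13, edgeR adjusted p = 0.163). The serine synthesis genes are Phgdh, Psat1 and Psph, in the order of their steps. Psat1, the highest of the group in TPM, had 75.2, 87.7 and 72.0 CPM in Wtap KO and 89.0, 51.0 and 49.0 CPM in WT. WT 1 was the highest of all 6 libraries, while WT 2 and WT 3 were below every Wtap KO library. With all libraries its log2 fold change was 0.31 ± 0.22 (edgeR adjusted p = 0.416). Without WT 1 it was 0.64 and called (adjusted p = 0.00709, against 0.311 to 0.725 in the other settings).

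Phgdh had 43.6, 41.5 and 30.9 CPM in Wtap KO and 52.1, 41.1 and 37.6 CPM in WT, with WT 1 highest and Wtap KO 3 lowest (log2 fold change -0.17 ± 0.17). Psph overlapped in CPM, at 27.1 ± 1.20 in Wtap KO and 24.6 ± 2.18 in WT, but not per length, at 39.9, 38.9 and 41.1 TPM in Wtap KO and 26.5, 29.6 and 34.0 TPM in WT. It passed in no setting (edgeR log2 fold change 0.14 ± 0.12 on counts, adjusted p 0.0798 to 0.742 over the alternatives of all tools) and shares 452 exonic bases with Cct6a. The mitochondrial folate enzymes Mthfd2 and Mthfd1l did not pass. Mthfd1l was at 36.8, 33.7 and 29.8 CPM in Wtap KO and 66.3, 40.2 and 29.4 CPM in WT, again with WT 1 highest. Summed over the 7 genes, levels were 208 ± 4.40 TPM in Wtap KO and 168 ± 28.5 TPM in WT, where WT 1 held 200.1 TPM.

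Among the 4 enzymes of asparagine, proline and cysteine synthesis, Aldh18a1 rose. Aldh18a1, which makes the precursor of proline from glutamate (ENSMUSG00000025007, chr19:40550257-40588463, minus strand), had 64.5, 63.4 and 59.7 CPM in Wtap KO and 45.3, 40.7 and 39.3 CPM in WT. The groups were apart by more than the spread within either. The rise was 1.497-fold (log2 fold change 0.58 ± 0.10, edgeR adjusted p = 0.0134). The call was lost without WT 2 (adjusted p = 0.0638), without Wtap KO 1 (0.0730) and without Wtap KO 2 (0.0812), with log2 fold changes of 0.54 to 0.64 over the 6 leave-one-out fits and adjusted p-values of 6.2e-05 to 0.0812 over all alternatives. Pycr1, the last step of proline synthesis in mitochondria, had 1.49, 1.499 and 0.996 CPM in Wtap KO and 2.29, 1.19 and 0.927 CPM in WT; the groups overlapped (log2 fold change -0.15 ± 0.37).

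Asns, asparagine synthetase and a much-used readout of ATF4, had 16.4, 21.1 and 10.1 CPM in Wtap KO and 19.2, 11.4 and 3.68 CPM in WT. WT 1 was above 2 of the 3 Wtap KO libraries, and the WT libraries differed 5.21-fold among themselves. Asns did not pass (log2 fold change 0.47 ± 0.55, edgeR adjusted p = 0.654), and the 95% interval of -0.61 to 1.56 covers both a fall and a rise of over 1.5-fold. Cth, which makes cysteine from cystathionine, had 3 to 13 counts in Wtap KO and 4 to 15 in WT and did not pass. All 4 genes of this group were highest in WT 1 and lowest in WT 3 among WT, and lowest in Wtap KO 3 among Wtap KO.

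**Figure D3:**
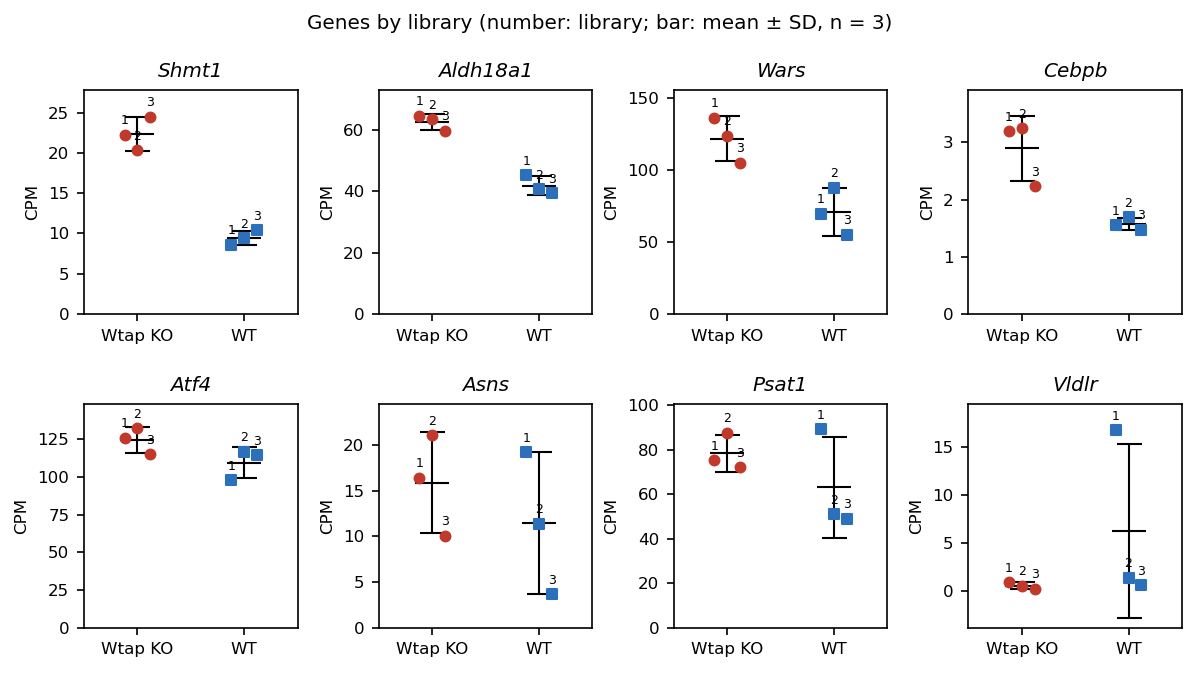
CPM of 8 members by library (numbered points, Wtap KO left and WT right), with the mean and SD of 3 libraries. Shmt1, Aldh18a1, Wars and Cebpb, the called genes, show separate groups, whereas in Asns, Psat1 and Vldlr library WT 1 stands above the other WT libraries.

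Of the 12 cytosolic synthetases, which load amino acids onto tRNAs, 1 rose. Wars (ENSMUSG00000021266, chr12:108860030-108894174, minus strand), whose human counterpart is also known as an interferon-gamma-induced gene, had 136, 124 and 105 CPM in Wtap KO and 69.6, 87.7 and 54.9 CPM in WT. Every Wtap KO library was above every WT library, with Wtap KO 3 and WT 2 nearest to each other. The gene rose 1.72-fold (log2 fold change 0.78 ± 0.17, edgeR adjusted p = 0.0290). The call was lost without WT 1 (adjusted p = 0.0520), Wtap KO 1 (0.126), Wtap KO 2 (0.112) or Wtap KO 3 (0.0563), and with limma on log2(TPM + 1) (0.0514). Over all alternatives the adjusted p ran from 0.00099 to 0.126.

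The other 11 synthetases did not pass and had log2 fold changes of -0.22 to 0.29. Sars, the seryl-tRNA synthetase and the highest of the 12 in TPM, had 126, 122 and 108 CPM in Wtap KO and 118, 111 and 119 CPM in WT. Wtap KO 3 was the lowest of the 6 libraries, and the log2 fold change was 0.04 ± 0.10 with a 95% interval of -0.16 to 0.23. Aars, for alanine, had the next highest log2 fold change, 0.29 ± 0.14 (edgeR adjusted p = 0.220). With an offset for transcript length it was 0.047 (edgeR adjusted p = 0.928). Aars shares 1326 exonic bases with Exosc6 on the same strand, and Exosc6 had 0 estimated counts over the 6 libraries. The part of Exosc6 reads in the Aars counts was not tested. Gars, for glycine, was the only member whose Wtap KO libraries all lay below the WT libraries in CPM. It had 112, 119 and 116 CPM in Wtap KO and 158, 126 and 120.2 CPM in WT, with a small gap to WT 3. In TPM the groups overlapped, as WT 3, at 52.2, lay below the Wtap KO libraries at 52.7, 53.5 and 55.0. Gars did not pass (log2 fold change -0.22 ± 0.12, edgeR adjusted p = 0.288). For Iars, Mars1, Tars, Cars and Sars the intervals all lay between -0.32 and 0.38. Summed over the 12 genes, levels were 355 ± 17.1 TPM in Wtap KO and 331 ± 37.6 TPM in WT, and the groups overlapped.

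The deposited tables list transcripts, so each call was followed to them. Of 211 transcripts of the members, 115 were tested; edgeR called 1 higher and 0 lower, and 15 had an unadjusted p under 0.05. For comparison, edgeR called 0.725% of all 47177 tested transcripts, 0.504% higher and 0.220% lower, and 14.3% had an unadjusted p under 0.05. The called one was Shmt1-201, a protein-coding transcript of 2858 bases and 12 exons, at 6.66, 5.61 and 7.30 TPM in Wtap KO and 2.84, 2.96 and 3.00 TPM in WT. The groups were far apart (log2 fold change 1.104 ± 0.14, edgeR adjusted p = 0.0378). The call was lost without any 1 of the 6 libraries (adjusted p 0.0729 to 0.179), while the log2 fold change stayed between 1.03 and 1.17. DESeq2 called 4 transcripts: Shmt1-201, Shmt1-203 and Wars-205 higher and Vldlr-207 lower.

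Shmt1-203, a retained-intron transcript of 453 bases, had 7.34, 8.55 and 12.0 TPM in Wtap KO and 0.158, 2.01 and 2.09 TPM in WT. It held 13.1% ± 2.33 of the gene's estimated counts in Wtap KO and 4.86% ± 3.71 in WT, and Shmt1-201 held 79.2% ± 1.30 in Wtap KO and 87.9% ± 4.48 in WT. In edgeR the retained-intron transcript did not pass (adjusted p = 0.208, 0.0172 to 0.464 over the alternatives). Wars-205, the main coding transcript of Wars, had 46.4, 37.5 and 31.6 TPM in Wtap KO and 20.9, 27.6 and 13.8 TPM in WT, without overlap (edgeR adjusted p = 0.231). Its share of the gene's counts was 82.9% ± 5.40 in Wtap KO and 78.6% ± 7.67 in WT.

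The near-identical coding transcripts Aldh18a1-201 and Aldh18a1-207, each of 19 exons, divided the gene unevenly between WT libraries. Aldh18a1-201 had 9.97, 9.44 and 8.94 TPM in Wtap KO and 2.53, 4.98 and 7.63 TPM in WT. Aldh18a1-207 had 7.84, 7.09 and 7.92 TPM in Wtap KO and 9.58, 6.03 and 2.68 TPM in WT. The WT libraries ran in opposite orders in the 2 transcripts, so the gene total was steadier than its parts. The split between such transcripts carries an estimation error that the tables do not give. For Atf4, the coding Atf4-201 held 75.6% ± 1.38 of the gene's counts in Wtap KO and 76.2% ± 2.24 in WT.

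**Figure D4:**
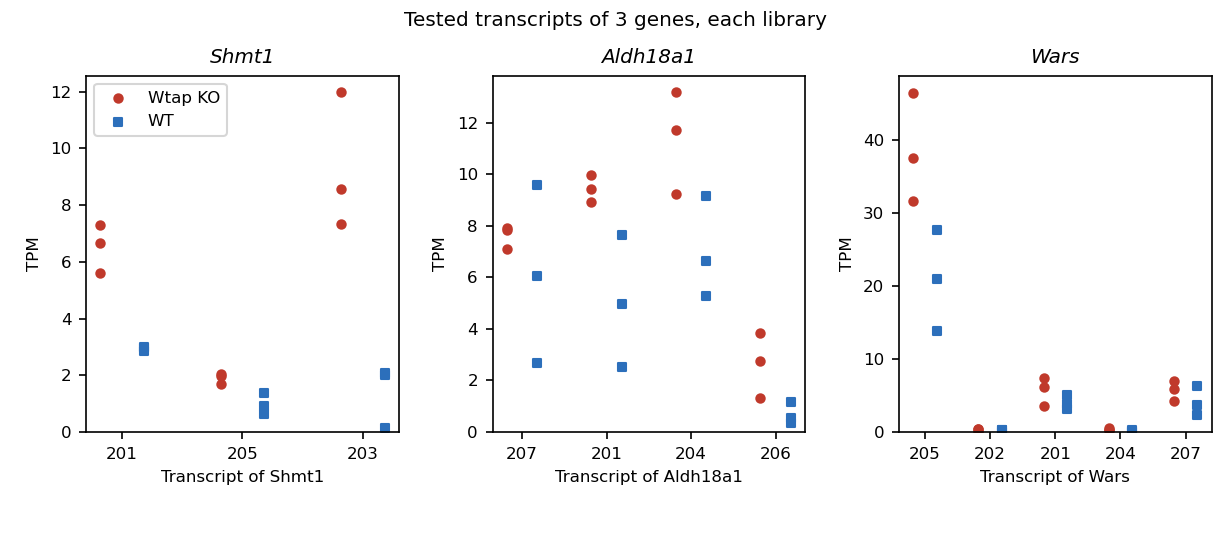
TPM of the tested transcripts of Shmt1, Aldh18a1 and Wars in each library, with red circles for Wtap KO and blue squares for WT. The circles lie above all squares for Shmt1-201, Shmt1-203 and Wars-205, while the squares of Aldh18a1-201 and Aldh18a1-207 are spread widely.

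The members also varied from library to library in ways that the genotype does not describe. In 19 of 35 members WT 1 was the highest WT library, which held for 38.6% of all genes, and in 21 WT 3 was the lowest, which held for 36.4%. In 25 of 35 Wtap KO 3, the library with the male pattern, was the lowest of its group, which held for 39.4% of all genes. Only 1 library had that pattern, so sex cannot be told apart from other traits of that library. In 28 members the range of the WT libraries (in log2(CPM + 0.5)) exceeded the difference between the group means, as it did for 71.2% of all genes. Members with TGATGNAA in the window had a median WT highest-to-lowest ratio of 2.25, and the 17 members whose window lacked it had 1.25. Those with the letters included genes of few counts, such as Nupr1 (22, 2 and 3 in WT) and Chac1 (9, 10 and 2). Among their better counted genes, Tars, Yars, Iars, Aars and Gars had ratios of 1.15 to 1.32, but Trib3 had 2.03 and Asns 5.21. Whether the element plays a part was not tested. Of the 12 with the element 0 were called by edgeR and of the 17 without it 3 were called, namely Shmt1, Aldh18a1 and Cebpb. Of all genes tested 9.23% were called, and with so few members the 2 counts were not tested against each other. The median log2 fold change was 0.17 with the element and 0.19 without it. These are descriptions of 6 libraries, and members share those libraries.

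**Figure D5:**
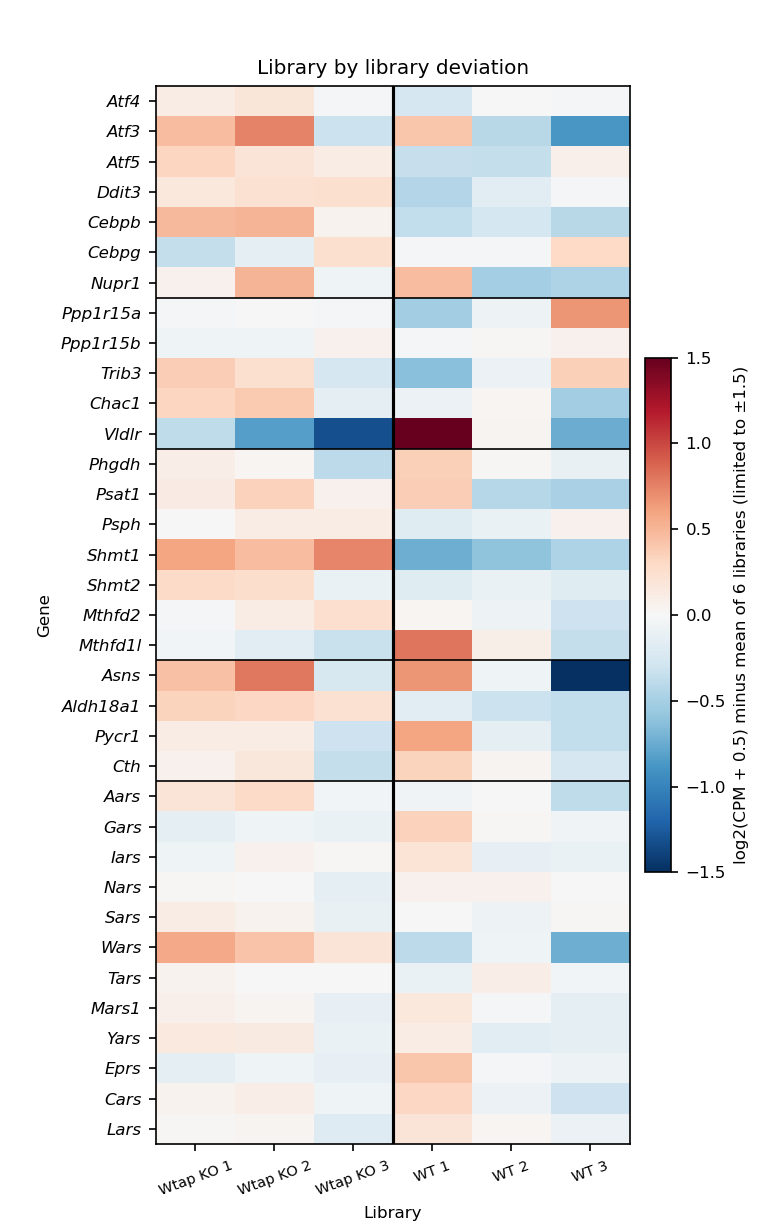
Deviation of each member in each library from its mean over 6 libraries, in log2(CPM + 0.5) with the colour limited to ±1.5, Wtap KO left and WT right, in role order. Shmt1, Aldh18a1 and Wars split by genotype, whereas Asns, Pycr1, Mthfd1l and Eprs are highest or near highest in WT 1.

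Further genes of the same pathways were read from lists of 83 tested genes, of which 5 rose and 1 fell (7.23% called, against the 9.23% of all genes). An unadjusted edgeR p under 0.05 was found for 22 of the 83, against 26.3% of all genes. Of the 12 genes for eIF2 kinases, eIF2 and its exchange factor eIF2B, edgeR called 0, with 1 higher and 3 lower at an unadjusted p under 0.05, and DESeq2 called Eif2b3 and Eif2b4 lower. Of 10 other ATF4 targets 1 rose, Sesn2, an inhibitor of mTORC1 that senses leucine, which had 14.7, 14.4 and 14.9 CPM in Wtap KO and 8.203, 8.16 and 11.7 CPM in WT (log2 fold change 0.65 ± 0.17, edgeR adjusted p = 0.0478). The groups were apart, and the call was lost in all leave-one-out fits but the one without WT 3 (adjusted p 0.0105 to 0.157), and, among other settings, with RLE factors, with limma and with the length offset. Gdf15 and Fgf21 were at or near 0 counts and were not tested.

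Of 12 tested amino acid transporters 2 rose and 0 fell in edgeR, and 4 had an unadjusted p under 0.05, all higher. Of all genes, 9.23% were called and 26.3% had an unadjusted p under 0.05, in either direction. Slc7a1, a carrier of cationic amino acids, had 53.6, 54.9 and 50.8 CPM in Wtap KO and 40.1, 36.7 and 36.9 CPM in WT (log2 fold change 0.49 ± 0.10, edgeR adjusted p = 0.0227). Slc3a2, the heavy chain shared by several exchangers, had 69.6, 69.8 and 60.2 CPM in Wtap KO and 49.8, 49.3 and 50.8 CPM in WT (log2 fold change 0.41 ± 0.10, edgeR adjusted p = 0.0413). In both the groups were apart. Each call was lost without WT 2 or any Wtap KO library, and that of Slc3a2 also without WT 3, with adjusted p-values up to 0.190. Among other settings, that of Slc7a1 was also lost with limma, and that of Slc3a2 with the length offset and without a filter on low counts. The leucine carrier Slc7a5, partner of Slc3a2, was at 51.2 CPM in Wtap KO and 30.1 CPM in WT and did not pass in edgeR (adjusted p = 0.0730), though DESeq2 called it.

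The 11 other cytosolic synthetase and scaffold genes gave 0 calls in edgeR, 2 lower at an unadjusted p under 0.05, and 1 lower (Kars) in DESeq2. Of 17 mitochondrial synthetases 2 rose and 1 fell. Mars2, the mitochondrial methionyl-tRNA synthetase, had 4.56, 4.67 and 5.78 CPM in Wtap KO and 10.4, 12.8 and 13.6 CPM in WT, a clear gap (log2 fold change -1.29 ± 0.17, edgeR adjusted p = 0.00447), and passed in all 15 alternatives. Tars2, for threonine, was at 50.9 ± 3.99 CPM in Wtap KO and 29.9 ± 6.59 CPM in WT (log2 fold change 0.77 ± 0.17, edgeR adjusted p = 0.0250). Wars2, for tryptophan, was at 14.2 ± 0.443 CPM in Wtap KO and 9.50 ± 1.01 CPM in WT (log2 fold change 0.58 ± 0.14, edgeR adjusted p = 0.0341). Both calls were lost without WT 2 or any Wtap KO library, with adjusted p-values up to 0.103 for Tars2 and 0.135 for Wars2. Among other settings, Wars2 was also lost with limma and with the length offset (adjusted p up to 0.279).

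Of 14 tested folate and methionine cycle enzymes beyond the members, edgeR called 0, with 1 higher and 1 lower at an unadjusted p under 0.05, and DESeq2 called Mthfs, which returns a storage form of folate to the active pool, lower. Mthfs was at 6.79 CPM in Wtap KO and 9.28 CPM in WT (edgeR adjusted p = 0.0816). Of 7 other proline and glutamate enzymes 0 were called by either tool and 0 had an unadjusted p under 0.05.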

How the data were processed

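Per the labels' protocols, mRNA libraries came from the SENSE kit of Lexogen and were sequenced from both ends at 50 bp. The authors deposited 142647 transcripts per library with an estimated count, a TPM value and lengths; kallisto 0.44.0, DESeq2 and the build GRCm38 (mm10) are named, per the submitters' processing notes. kallisto divides reads between transcripts by likelihood, so the deposited estimated counts are not whole, and the deposited TPM values are those counts per effective length scaled to 1000000 per library. The sources used here give neither the annotation release of the index nor the strand setting. Length columns, which the authors deposited beside the counts, served one alternative.

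Transcripts were matched without version to GENCODE M21 (99.15% matched, with 99.71% to 99.75% of counts), summed per gene and rounded. Depth was 32363139 to 44039467 estimated counts a library. Genes were tested with edgeR 4.0.16 (R 4.3.3; quasi-likelihood, robust, TMM, filterByExpr; genotype as the only term) in 6 libraries, adjusted by Benjamini-Hochberg over 17610 genes, threshold 0.05, and transcripts likewise over 47177. SE is the absolute log2 fold change over the square root of F. A 95% interval is the estimate ± 1.96 SE, a normal approximation that is narrower than the edgeR test implies. For Atf5 it ran from 0.046 to 0.94, though the unadjusted edgeR p was 0.0592. Code was tested on simulated data. Alternatives were RLE factors, DESeq2 1.42.0, no filter, limma 3.58.1 on log2(TPM + 1) and log2(TPM + 0.1), length and GC offsets, unmatched transcripts kept, a replicate block and leaving out each library. Mars1 is called Mars in GENCODE M21. Named with values by library were the called members, Atf4, the highest member of each role and others the text describes, chosen after their values were seen. Members and lists were chosen with earlier results of these data known. Part of the pathway lists is not reported here.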

Additional observations from a re-analysis of the deposited data

How the results depend on the processing

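The numbers of genes, members and member transcripts called, 1626, 4 and 1, depended on the setting. DESeq2 called 2581 genes, 4 members and 4 member transcripts, and limma on log2(TPM + 1) called 2 members. When 1 library was left out, 361 to 2282 genes and 1 to 4 members were called, and 0 member transcripts each time. Of the 1626 calls 62.2% were higher, against 52.5% with DESeq2, 73.8% with limma on log2(TPM + 1), 73.3% with limma on log2(TPM + 0.1), 52.7% with the GC offset and 72.9% without Wtap KO 2. The cause of these shifts was not tested. Nupr1, Chac1 and Cth, at 2 to 26 counts a library, had few counts behind each value.

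The labels do not say whether the replicate numbers pair the libraries. Same-numbered libraries had correlations of deviations from their group mean of -0.0954, 0.0525 and 0.13. With 3 libraries in each group, these values cannot decide whether libraries were paired. With a replicate block 1061 genes, 3 members and 0 member transcripts were called. The block ended the calls of the member Cebpb (edgeR adjusted p = 0.0757) and of Sesn2 (0.0638), Slc3a2 (0.0994), Slc7a1 (0.0621), Wars2 (0.0679), Cd4 (0.0656), Cd8b1 (0.0553) and transcript Shmt1-201 (0.301).

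Some members that did not pass changed the sign of their log2 fold change. Iars was at -0.0083 with RLE factors, -0.0084 with DESeq2, -0.12 with limma at either pseudocount and -0.18 with the length offset. With limma on log2(TPM + 1), Cebpg was at 0.038, Ppp1r15b at 0.11, Nars at 0.00038 and Mars1 at 0.092. On log2(TPM + 0.1), Cebpg was at 0.040, Ppp1r15a at 0.0071, Ppp1r15b at 0.11, Pycr1 at 0.026, Nars at 0.00039 and Mars1 at 0.11. With the length offset Ppp1r15b was at 0.057, Tars at -0.016 and Mars1 at 0.043, and with the GC offset Sars was at -0.052 and Cars at -0.0070. Leaving out 1 library gave ranges of -0.014 to 0.49 for Trib3, -0.40 to 0.33 for Pycr1, -0.68 to 0.26 for Cth, -0.021 to 0.078 for Tars and -0.078 to 0.075 for Mars1. The ranges were -0.056 to 0.12 for Iars, -0.11 to 0.23 for Cars, -0.38 to 0.27 for Ppp1r15a, -0.0036 to 0.099 for Sars, -0.21 to 0.070 for Tmem189 and -0.077 to 0.77 for Aldh18a1-207. Shmt1 kept its call in all 15 alternatives, and Cebpb, Aldh18a1 and Wars kept their direction in all of them.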
